A study of Mus musculus with 8 samples.

Results

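Wound matrix glycoproteins and contractile proteins of myofibroblasts were followed in whole mouse cornea through 10 genes, out of 24918 rows in the deposited table: Fn1, Spp1, Tnc, Thbs1, Thbs2, Thbs4, Postn, Sparc, Acta2 and Tagln. They were taken by gene symbol from a named list, which was chosen with earlier results of these data known, and each had 1 row. Of these, 4 genes were higher after dexamethasone than after vehicle, 6 were not called and 0 were lower. Both groups were male wild-type C57BL/6J mice whose adrenal glands had been removed at 8 weeks of age, which takes away their own glucocorticoids, and which received eye drops about 4 weeks later. The dexamethasone group (dex) received drops with dexamethasone, a synthetic glucocorticoid, for 6 h, and the vehicle group received vehicle drops for 6 h. Each group had 4 libraries, each from 4 to 6 pooled corneas. The labels describe no wound, do not say how many mice gave a pool, and give no group with intact adrenal glands, so every value refers to corneas of adrenalectomized mice with no wound named.

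When the cornea is wounded, a provisional matrix rich in fibronectin is laid down, and stromal keratocytes can turn into fibroblasts and then into contractile myofibroblasts under the influence of TGF-beta. Matricellular proteins such as osteopontin, tenascin-C, periostin, SPARC and the thrombospondins are secreted into this matrix, where they signal to cells through integrins and other receptors more than they bear load. Alpha smooth muscle actin, the product of Acta2, is the standard marker of the myofibroblast. Glucocorticoid drops are used on the eye to limit inflammation and scarring.

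All values below are the authors' normalized log2 values, compared with limma across the 14715 rows whose mean log2 value reached 3. A call means a Benjamini-Hochberg adjusted p below 0.05. Read totals per library are unknown. The values behave as shrunken log2 values, so fold changes may be understated. Whether the replicates are separate groups of mice is not stated beyond their being separate pools, so p-values measure the spread between pools. Known glucocorticoid targets separated the groups: Fkbp5, Tsc22d3 and Per1 had log2 differences of 0.88, 0.59 and 0.42. Dexamethasone replicate 1 and vehicle replicate 3 stood apart in keratinocyte genes of wounded epithelium. Krt16 was 9.33 and 11.20 there, against 7.33 to 8.04 in the other libraries, and Krt6a was 16.67 and 16.80, against 16.37 to 16.56. In those 2 libraries the median deviation of the 10 genes from the other 3 libraries of the group was 0.048 and -0.026.

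Against the background, 4 of 10 genes were called higher, where 9.04% of all tested rows were, and 0 were called lower in limma, where 6.03% of rows were; 0 were lower also at an unadjusted p below 0.05. The groups did not overlap, with dexamethasone above vehicle, in 3 of the 10 genes (Fn1, Spp1 and Thbs4), where 11.6% of all tested rows did so. In 0 of the 10 did dexamethasone lie wholly below vehicle, where 9.11% of rows did, and 20.7% of rows separated in either direction. The median log2 difference was 0.048 over the 10 genes and -0.0029 over all tested rows. The members were chosen with earlier results of these data known, so these counts describe the genes and carry no test of the list. Because whole corneas were measured, more or fewer cells of a type and more or less RNA per cell cannot be told apart.

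**Figure D1:**
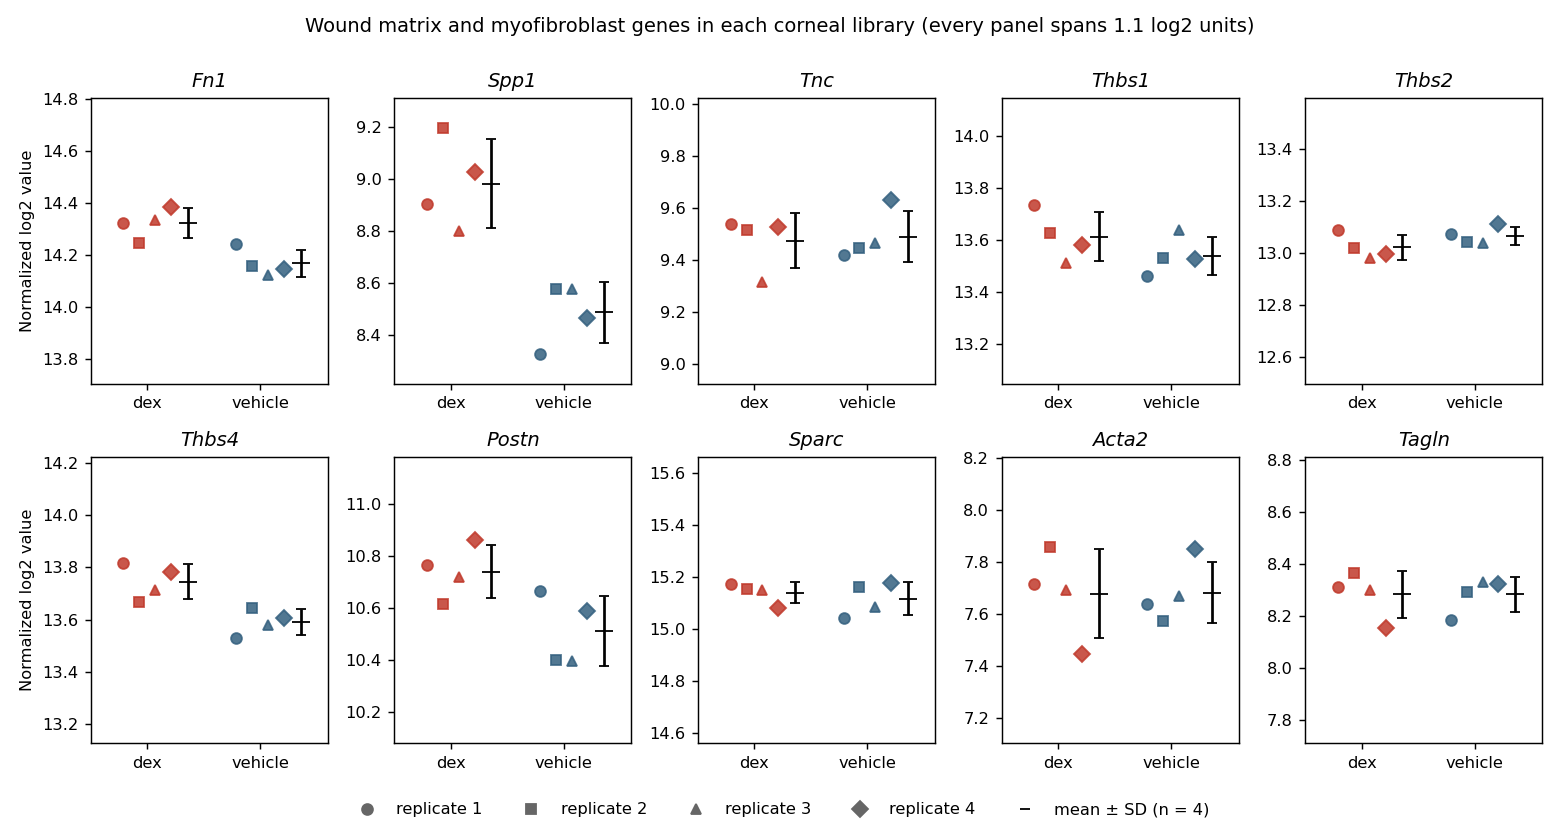
Normalized log2 value (y axis) of each of the 10 genes in the 4 dexamethasone and 4 vehicle libraries, with symbols for the replicate number and a bar for the mean ± SD; every panel spans the same log2 range. Spp1 shows the widest separation, with dexamethasone libraries between 8.80 and 9.20 and vehicle libraries between 8.33 and 8.58, while Acta2, Tagln, Tnc and Sparc overlap.

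The promoters of 3 called genes and of Acta2 are shown for the letters around their start sites. They are RefSeq sequences on GRCm38.p6 from 250 bases before to 50 bases after a start site, printed 5′ to 3′ on the gene's strand; 7 of the 10 genes matched, with Fn1, Thbs1 and Tagln not among them. Capitals mark a TATA box (TATAAA), a glucocorticoid response half-site (AGAACA), an AP-1 site (TGACTCA), a CArG box, the motif of serum response factor, or a CArG box with 1 G or C in its A/T core, on either strand. The last of these was added after the Acta2 sequence had been read.
Spp1, chr5:104434861-104435160, plus strand: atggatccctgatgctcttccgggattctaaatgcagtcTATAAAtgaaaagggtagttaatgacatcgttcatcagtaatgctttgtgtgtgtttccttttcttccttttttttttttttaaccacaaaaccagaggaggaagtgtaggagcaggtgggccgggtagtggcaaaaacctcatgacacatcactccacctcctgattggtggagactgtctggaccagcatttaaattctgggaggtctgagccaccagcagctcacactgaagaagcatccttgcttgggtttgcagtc
Postn, chr3:54360857-54361156, plus strand: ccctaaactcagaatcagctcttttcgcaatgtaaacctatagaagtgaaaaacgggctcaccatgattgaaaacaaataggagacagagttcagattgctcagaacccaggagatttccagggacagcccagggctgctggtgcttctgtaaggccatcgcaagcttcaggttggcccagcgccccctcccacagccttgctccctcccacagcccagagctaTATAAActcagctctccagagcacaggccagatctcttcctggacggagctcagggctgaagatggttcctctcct
Thbs4, chr13:92794769-92795068, minus strand: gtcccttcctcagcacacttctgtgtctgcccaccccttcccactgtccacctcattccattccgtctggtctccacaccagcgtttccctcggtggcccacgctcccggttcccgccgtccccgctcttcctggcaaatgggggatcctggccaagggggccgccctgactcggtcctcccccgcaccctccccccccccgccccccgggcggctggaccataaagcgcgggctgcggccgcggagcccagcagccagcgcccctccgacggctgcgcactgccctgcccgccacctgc
Acta2, chr19:34255324-34255623, minus strand: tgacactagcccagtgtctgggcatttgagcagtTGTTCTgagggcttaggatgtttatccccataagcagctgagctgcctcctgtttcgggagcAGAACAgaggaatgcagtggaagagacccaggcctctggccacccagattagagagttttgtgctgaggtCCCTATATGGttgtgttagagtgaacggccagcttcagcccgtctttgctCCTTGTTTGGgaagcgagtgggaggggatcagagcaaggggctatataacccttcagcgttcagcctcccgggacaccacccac
The Acta2 window held 2 CArG boxes with 1 G or C in the core, at -84 to -75 and -34 to -25 from the start site, and 2 half-sites at -216 to -211 and -154 to -149. Among the matched genes, no other window held either kind of CArG box; the strict form was found in 1.63% and the relaxed form in 8.5% of 32851 RefSeq windows of this length. The Thbs4 window held none of the motifs. Postn and Spp1 each had 2 windows, of which the printed one was chosen because it held a motif and the other held none. The printed Postn window had a TATA box at -26 to -21, and the printed Spp1 window had one at -211 to -206; the windows of Thbs2 and Tnc, not printed, also held these letters, against 13.6% of windows with a TATA box. Half-sites occurred only in the windows of Acta2 and Sparc (at -78 to -73 and -14 to -9), neither of which was called, and in 19.0% of all windows. The AP-1 letters were in none of the members' windows and in 5.2% of all windows. The marked motifs do not overlap, and a match describes letters, not binding.

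The fibronectin gene was higher after dexamethasone by a small margin. Fn1 (Entrez 14268; mm9 chromosome 1, 71632094 to 71699774), the gene of the main adhesive glycoprotein of the provisional matrix, stood at 14.32, 14.25, 14.33 and 14.39 in dexamethasone replicates 1 to 4. In vehicle replicates 1 to 4 it stood at 14.24, 14.16, 14.13 and 14.15. All 4 dexamethasone libraries lay above all 4 vehicle libraries, but the lowest of the one exceeded the highest of the other by only 0.0045. The means were 14.32 ± 0.058 after dexamethasone and 14.17 ± 0.051 after vehicle (SD, n = 4 each), a log2 difference of 0.15 (SE 0.037, adjusted p = 0.0179, limma). This is 1.11-fold, with a 95% interval of 1.05 to 1.18. The call was lost without dexamethasone replicate 4 (adjusted p = 0.0559, limma), without vehicle replicate 4 (0.0586) and with quantile normalization (0.0587).

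Osteopontin showed the largest difference of the 10 genes. Spp1 (Entrez 20750; chromosome 5, 104864137 to 104870069) encodes a secreted phosphoprotein that binds integrins and CD44 and also acts as a cytokine. It stood at 8.90, 9.20, 8.80 and 9.03 in dexamethasone replicates 1 to 4, against 8.33, 8.57, 8.58 and 8.47 in vehicle replicates 1 to 4. The groups were separated by 0.22, the distance from the highest vehicle library to the lowest dexamethasone library. Means were 8.98 ± 0.17 after dexamethasone and 8.49 ± 0.12 after vehicle (SD, n = 4 each), a log2 difference of 0.49 (SE 0.081, adjusted p = 0.00188, limma), or 1.41-fold with a 95% interval of 1.25 to 1.59. The absolute difference was larger than that of 99.4% of tested rows. Spp1 was also the member that kept its call under all 18 alternatives, with adjusted p from 0.000838 to 0.00833 (limma).

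**Figure D2:**
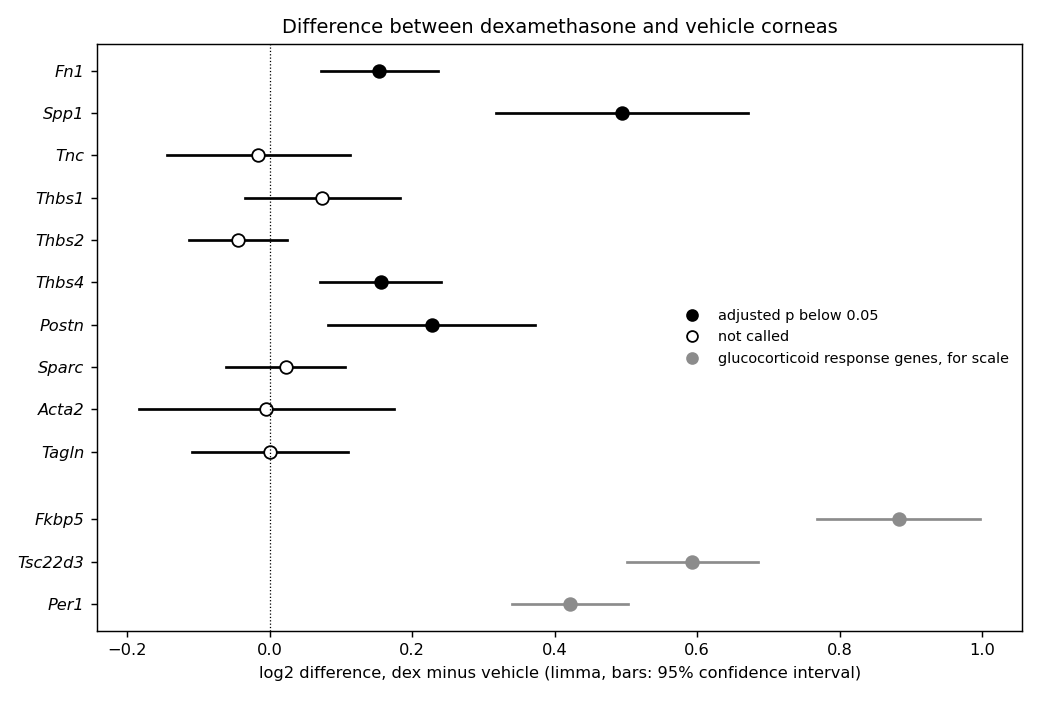
Log2 difference of dexamethasone minus vehicle (x axis) for the 10 genes, with Fkbp5, Tsc22d3 and Per1 for scale; bars are 95% confidence intervals from limma and filled points are called. Spp1 at 0.49 lies beside Per1 at 0.42, the other called genes lie between 0.15 and 0.23, and the intervals of the 6 open points include 0.

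Among the thrombospondins, Thbs4 was higher after dexamethasone, and Thbs1 and Thbs2 were not called. Thbs4 (Entrez 21828; chromosome 13, 93521545 to 93564773), a gene of the pentameric subgroup that is known from tendon and muscle, stood at 13.82, 13.67, 13.71 and 13.78 in dexamethasone replicates 1 to 4. Vehicle replicates 1 to 4 had 13.53, 13.65, 13.58 and 13.61. The groups did not overlap, with a gap of 0.023. The means were 13.75 ± 0.068 after dexamethasone and 13.59 ± 0.049 after vehicle (SD, n = 4 each), a log2 difference of 0.16 (SE 0.039, adjusted p = 0.0196, limma), or 1.11-fold with a 95% interval of 1.05 to 1.18. Among fits that left out libraries, the call was lost without dexamethasone replicate 4 (adjusted p = 0.0599, limma), without vehicle replicate 1 (0.0568) and without both libraries high in Krt16 (0.0525). Vehicle replicate 1, the lowest for Thbs4, was also the library highest in skeletal muscle genes. For that list of 12 genes, the log2 of the summed linear values was 6.91 to 6.94 in the dexamethasone libraries. It was 7.29 in vehicle replicate 1 and 6.91 to 6.92 in the other vehicle libraries. Tnnt3, a troponin gene, was 4.91 in vehicle replicate 1 against 4.53 to 4.64 elsewhere. The part of muscle in the Thbs4 difference was not tested beyond the fit without this library, in which the difference was 0.14.

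Thbs1 (Entrez 21825; chromosome 2, 117937612 to 117952869) encodes a trimeric thrombospondin that activates latent TGF-beta and inhibits new vessels. It stood at 13.73, 13.63, 13.51 and 13.58 in dexamethasone replicates 1 to 4, against 13.46, 13.53, 13.64 and 13.53 in vehicle replicates 1 to 4. The highest library of each group was the one high in Krt16, dexamethasone replicate 1 and vehicle replicate 3, by 0.16 and 0.13 above the other libraries of its group. The log2 difference of 0.074 had a 95% interval of -0.035 to 0.18 (adjusted p = 0.351, limma). Thbs2 (Entrez 21826; chromosome 17, 14802507 to 14831269), the related gene of a trimeric, anti-angiogenic thrombospondin, ranged from 12.98 to 13.09 in dexamethasone libraries and from 13.04 to 13.11 in vehicle libraries. Its difference was -0.045, with a 95% interval of -0.11 to 0.024 (adjusted p = 0.375, limma).

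Whether the thrombospondins differed from each other in response was tested on their log2 difference within each library. Thbs4 minus Thbs2 was 0.73, 0.65, 0.73 and 0.79 in dexamethasone replicates 1 to 4, against 0.46, 0.61, 0.54 and 0.50 in vehicle replicates 1 to 4. It was higher in 4 of 4 dexamethasone libraries than in any vehicle library, by 0.20 on average (exact permutation test, two-sided, p = 0.0286, the smallest that 4 against 4 allows). Adjusted over the 5 gene pairs tested, all chosen after values were seen, p was 0.0714, which does not pass. For Thbs4 minus Thbs1 the difference was 0.082 (exact permutation p = 0.229, adjusted 0.229), and for Thbs1 minus Thbs2 it was 0.12 (exact permutation p = 0.0857, adjusted 0.107).

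Of periostin, tenascin-C and SPARC, periostin was called, and differences between the 3 genes were not tested. Postn (Entrez 50706; chromosome 3, 54165031 to 54194961), the gene of a collagen-binding protein that takes part in collagen cross-linking, stood at 10.77, 10.61, 10.72 and 10.86 in dexamethasone replicates 1 to 4. Vehicle replicates 1 to 4 stood at 10.66, 10.40, 10.40 and 10.59. The groups overlapped: vehicle replicate 1 lay above dexamethasone replicate 2. The means were 10.74 ± 0.10 after dexamethasone and 10.51 ± 0.14 after vehicle (SD, n = 4 each), a log2 difference of 0.23 (SE 0.066, adjusted p = 0.0402, limma), or 1.17-fold with a 95% interval of 1.06 to 1.29. It is the least stable of the 4 calls, kept in 9 of 18 alternatives. Among fits without 1 library it was lost without dexamethasone replicate 1, 3 or 4 (adjusted p = 0.0789, 0.0649 and 0.111, limma) and without vehicle replicate 2, 3 or 4 (0.110, 0.0755 and 0.0570).

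Tnc (Entrez 21923; chromosome 4, 63620819 to 63681760), a large glycoprotein gene known from embryonic and healing tissue, stood at 9.54, 9.51, 9.31 and 9.53 in dexamethasone replicates 1 to 4. In vehicle replicates 1 to 4 it stood at 9.42, 9.44, 9.46 and 9.63. Dexamethasone replicate 3 was the lowest of the 8 libraries and vehicle replicate 4 the highest, and the other 6 libraries lay between 9.42 and 9.54. The log2 difference was -0.016, with a 95% interval of -0.14 to 0.11 (adjusted p = 0.895, limma). Sparc (Entrez 20692; chromosome 11, 55208002 to 55233582), which encodes a collagen-binding protein that loosens cell adhesion, ranged from 15.08 to 15.17 in dexamethasone libraries and from 15.05 to 15.18 in vehicle libraries. Its difference was 0.023, with a 95% interval of -0.061 to 0.11 (adjusted p = 0.737, limma).

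The myofibroblast markers gave no call. Acta2 (Entrez 11475; chromosome 19, 34315580 to 34329826), whose promoter window with its CArG-like letters is printed above, stood at 7.72, 7.86, 7.69 and 7.45 in dexamethasone replicates 1 to 4. Vehicle replicates 1 to 4 had 7.64, 7.57, 7.67 and 7.85. Means were 7.68 ± 0.17 after dexamethasone and 7.68 ± 0.12 after vehicle (SD, n = 4 each), a difference of -0.0045 with a 95% interval of -0.18 to 0.17 (adjusted p = 0.980, limma). Tagln (Entrez 21345; chromosome 9, 45737711 to 45744141), the gene of the actin-binding protein SM22-alpha, stood at 8.31, 8.37, 8.30 and 8.15 in dexamethasone replicates 1 to 4 and at 8.19, 8.29, 8.33 and 8.32 in vehicle replicates 1 to 4. Its difference was 0.00056, with a 95% interval of -0.11 to 0.11 (adjusted p = 0.996, limma). Both genes were highest in replicate 2 and lowest in replicate 4 of the dexamethasone group. Relative to the other 3 dexamethasone libraries, replicate 4 was lower by 0.31 for Acta2 and by 0.17 for Tagln, a spread between pools wider than either group difference. In fold terms the intervals run from 0.881 to 1.13 for Acta2 and from 0.927 to 1.08 for Tagln.

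**Figure D3:**
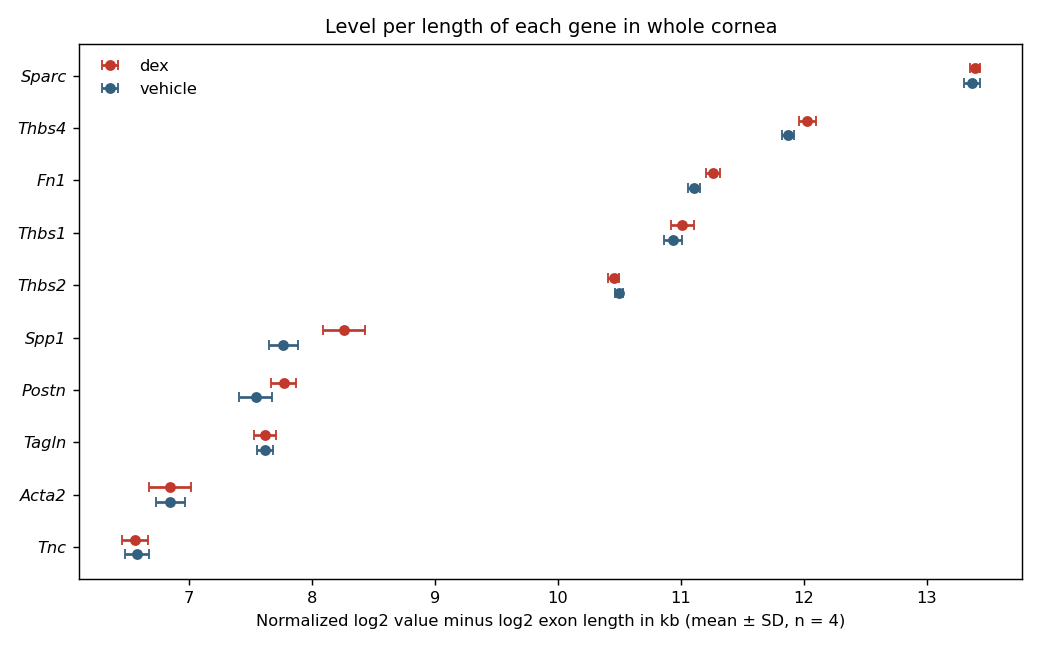
Level per length (x axis, normalized log2 value minus log2 of the exon length in kb) of each gene after dexamethasone and after vehicle, as mean ± SD of 4 libraries. Sparc is highest near 13.4 in both groups, and Acta2 and Tnc are lowest, between 6.56 and 6.85.

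To compare levels between genes, the log2 value was reduced by log2 of the gene's exon length in kb (GENCODE vM1). On this level scale Sparc was highest, at 13.39 ± 0.040 after dexamethasone and 13.37 ± 0.063 after vehicle (SD, n = 4 each). Thbs4 followed at 12.03 and 11.87, Fn1 at 11.26 and 11.11, Thbs1 at 11.01 and 10.94 and Thbs2 at 10.45 and 10.50 in dexamethasone and vehicle corneas. The library ranges of neighbours among these 5 genes did not overlap in either group. Spp1 lay far below at 8.26 and 7.77. Postn was 7.77 and 7.54, Tagln 7.62 and 7.62, Acta2 6.84 and 6.85 and Tnc 6.56 and 6.58. The ranges of Postn and Tagln overlapped in both groups, those of Spp1 and Tagln only among vehicle libraries, and those of Acta2 and Tnc only among dexamethasone libraries. The place of Postn depends on the length used: with its longest coding transcript of 3202 bases in place of the exon union of 7838 bases it was 9.06 after dexamethasone and 8.83 after vehicle, above Spp1 in each group. That length was tried after the data had been seen, and with it the ranges of Fn1 and Thbs1, and those of Acta2 and Tnc, also overlapped among vehicle libraries, while those of Spp1 and Tagln did not.

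**Figure D4:**
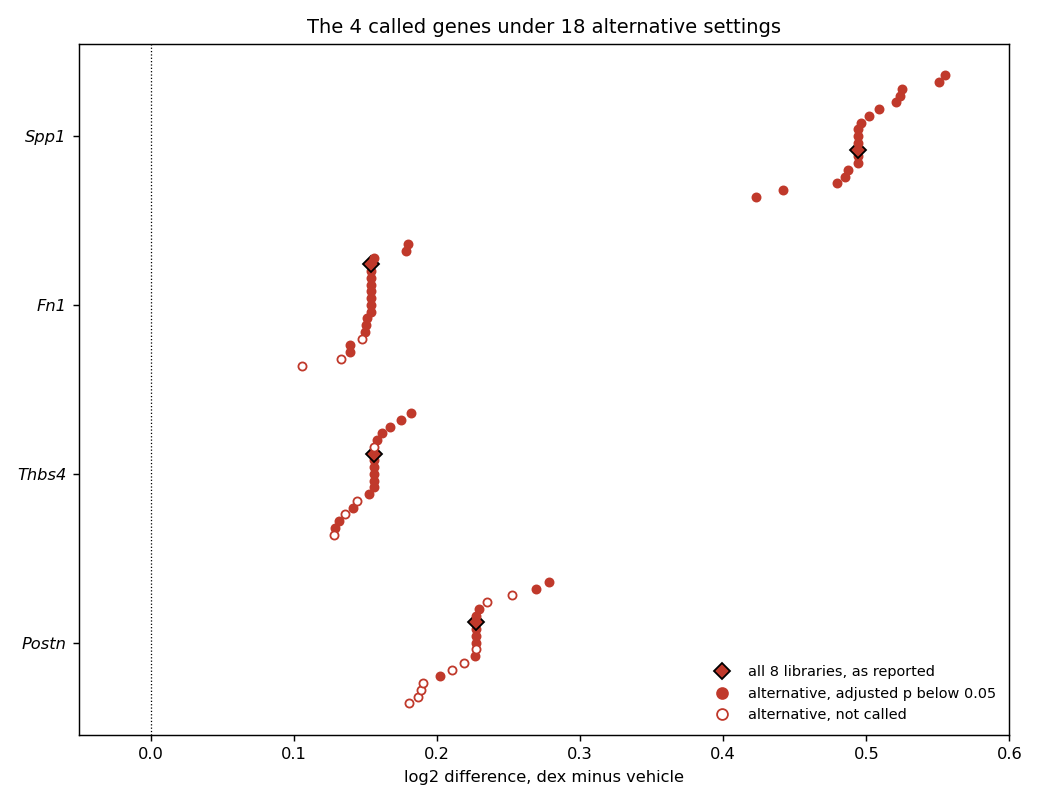
Log2 difference of dexamethasone minus vehicle (x axis) of the 4 called genes with all 8 libraries (diamonds) and under 18 alternatives (circles; open where not called). All Spp1 points are called, from 0.42 to 0.56, while open points occur for Fn1, Thbs4 and Postn, all above 0.

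Relatives of these glycoproteins moved both ways. In a list of 30 related matrix genes, 28 were tested, 5 rose, 3 fell and 20 were not called, where 9.04% of all tested rows rose and 6.03% fell. The median log2 difference was 0.027. Ctgf, the connective tissue growth factor gene of the CCN family (0.93, SE 0.058), Ecm1, a gene of an extracellular matrix glycoprotein (0.40, SE 0.054), and Smoc1, a gene of the SPARC family (0.26, SE 0.040), rose most, and Matn2 (0.14) and Spock2 (0.12), named after their values were seen, rose less. Emilin1, an elastic fibre gene, fell by 0.12, as did the CCN family genes Nov and Wisp1, by 0.17 and 0.13 (named after their values were seen). The count of risers was 3 without dexamethasone replicate 3 or 4, without vehicle replicate 3 or without both libraries high in Krt16. The count of fallers was 1 on leaving out dexamethasone replicate 1, 2 or 3, or one of vehicle replicates 1 and 2, and 0 without dexamethasone replicate 4 or vehicle replicate 4.

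Among receptors for these ligands, the share called was near that of all tested rows. Of 23 tested integrin, syndecan and other receptor genes, 2 rose, 1 fell and 20 were not called, where 15.1% of all rows were called in one or the other direction, and the median was 0.013. Itgb5, the beta-5 integrin that pairs with alpha-v and binds osteopontin and vitronectin, was 12.79 ± 0.029 after dexamethasone and 12.47 ± 0.042 after vehicle (SD, n = 4 each), a log2 difference of 0.31 (SE 0.029, adjusted p = 4.74e-05, limma). Itga8, the alpha-8 integrin, which binds fibronectin, tenascin-C and osteopontin, rose by 0.21 (SE 0.046), and Sdc1, a heparan sulfate proteoglycan gene, fell by 0.14 (SE 0.037). The fall of Sdc1 was lost on leaving out dexamethasone replicate 1 or 4, or one of vehicle replicates 2 and 4. The count of risers was 4 without both libraries high in Krt16, with library weights and with no variance trend, and 2 fell with library weights and with quantile normalization.

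Other contractile genes moved both ways, and 18 of 25 tested were, like Acta2 and Tagln, not called. The list held genes of actomyosin, focal adhesions and serum response factor. In it 5 rose and 2 fell (median 0.014), where 9.04% of all tested rows rose and 6.03% fell. Tns1, the tensin-1 gene of integrin adhesions, had 0.66 (SE 0.034), Actn1, the alpha-actinin-1 gene, 0.22 (SE 0.034), and Myh11, smooth muscle myosin heavy chain, 0.27 (SE 0.047), and all 3 rose; Tpm1, a tropomyosin gene, fell by 0.19 (SE 0.041). Named after their values were seen, Mylk (0.099) and Cald1 (0.13) rose and Cnn2 fell by 0.14. Cnn1 and Actg2, markers of mature smooth muscle, were below the filter, with values from 2.56 to 2.67 and from 2.01 to 2.09. Within libraries, Myh11 minus Tagln was -0.21, -0.31, -0.10 and -0.070 in dexamethasone replicates 1 to 4, against -0.38, -0.47, -0.55 and -0.36 in vehicle replicates 1 to 4 (exact permutation test, two-sided, p = 0.0286; 0.0714 adjusted over the 5 pairs). For Myh11 minus Acta2 the exact permutation p was 0.0571 (0.0952 adjusted), with 3 of 4 dexamethasone libraries above every vehicle library. Both pairs were chosen after values were seen, and neither adjusted p passes. They mostly restate the difference of Myh11, since Tagln and Acta2 differed by 0.00056 and -0.0045 between the groups. The count of contractile genes that rose was 3 with quantile normalization, without both libraries high in Krt16, and on leaving out dexamethasone replicate 1 or 4 or any of vehicle replicates 2, 3 and 4. The count that fell was 1 on leaving out dexamethasone replicate 3 or 4 or one of vehicle replicates 2 and 4.

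Among TGF-beta pathway and myofibroblast regulator genes, 7 of 23 tested rose, 16 were not called and 0 fell in limma, with 1 lower at an unadjusted p below 0.05 and a median of 0.073. Tgfbr3, the gene of betaglycan, a co-receptor that presents TGF-beta, rose by 0.39 (SE 0.035). Snai2, a transcription factor gene of epithelial-mesenchymal transition, rose by 0.24 (SE 0.042), Tgfb2, a ligand gene, by 0.13 (SE 0.027) and Smad4, the shared signal transducer, by 0.12 (SE 0.025). The count of risers was 4 without vehicle replicate 2, and 1 gene fell without dexamethasone replicate 1 or without both libraries high in Krt16. Of 24 tested genes for matrix processing, 9 rose, 2 fell and 13 were not called (median 0.037). Tll1, a metalloprotease gene of the BMP1 family, rose by 0.65 (SE 0.089), and Lox, a collagen cross-linking enzyme gene, by 0.61 (SE 0.057). Thbd, the thrombomodulin gene, fell by 0.32 (SE 0.049), and Plau, the urokinase gene, by 0.34 (SE 0.055). The count of risers in this list was 6 without vehicle replicate 4. These list counts stand beside 9.04% of all tested rows that rose and 6.03% that fell, 15.1% with a call in one or the other direction.

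**Figure D5:**
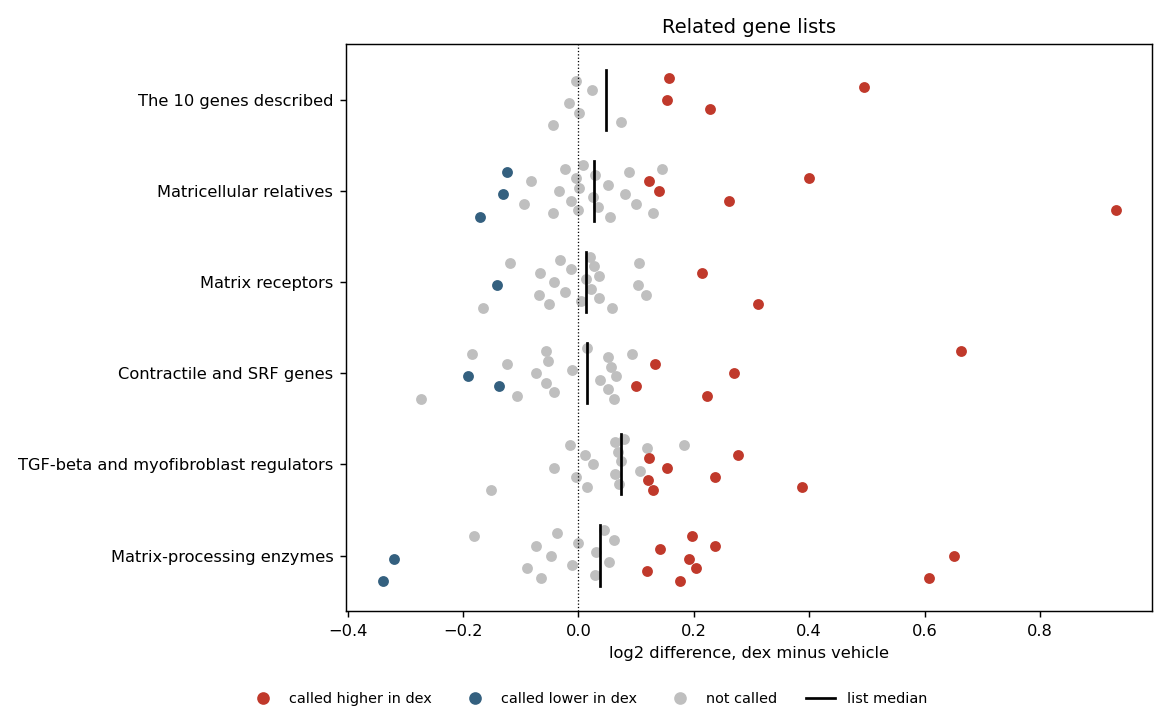
Log2 difference of dexamethasone minus vehicle (x axis) for every tested gene of the 10 genes described and of 5 related lists, with called genes coloured and the list median as a bar. The medians lie between 0.013 and 0.073, and called genes occur on both sides of 0 in 4 of the 6 sets.

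Markers of the cell types in the cornea were read beside these results; their calls stand against 9.04% of all tested rows higher and 6.03% lower. Of 9 tested keratocyte markers, the cells of the stroma, 0 rose in limma (0 also at an unadjusted p below 0.05), and Lum and Kera fell by 0.18 and 0.14. A list's sum, as given here, is the log2 of its summed linear values. For the keratocyte list it was 18.88 to 18.98 in dexamethasone libraries and 18.86 to 18.94 in vehicle libraries. That sum was mostly Col1a1, Col1a2 and Dcn, at means of 17.30, 17.01 and 16.40, against 14.60 for Kera and 13.92 for Lum. Of 9 tested corneal endothelium markers, 2 rose, 3 fell and 4 were not called, with a median log2 difference of 0.039. Slc4a4, a bicarbonate transporter gene, rose by 0.18, and Aqp1, Slc4a11 and, named after its values were seen, Cdh2 fell by 0.37, 0.21 and 0.15. The sum of this list was 16.41 to 16.47 after dexamethasone and 16.36 to 16.43 after vehicle. In the epithelial list 1 of 10 was lower (Krt5; 0 with quantile normalization), with a sum of 20.91 to 21.06 after dexamethasone and 21.02 to 21.06 after vehicle. Myh11 was the only call among 11 tested markers of vascular mural cells and smooth muscle, whose sum was 13.32 to 13.36 after dexamethasone and 13.35 to 13.45 after vehicle; with quantile normalization 1 marker was also called lower. That sum was mostly Notch3, at a mean of 13.26, against 7.97 for Myh11, the next highest. Of 12 macrophage markers, Mrc1 rose and Lyz2 fell, with a sum of 13.29 to 13.34 after dexamethasone and 13.30 to 13.34 after vehicle, a sum that was mostly Itgam, at a mean of 12.95. The vessel list had 1 call of 10 (Tie1 higher, and 2 calls with quantile normalization). At an unadjusted p below 0.05 in limma, 5 of its genes were higher and 0 lower, and the list median was 0.081. The vessel sum was 11.51 to 11.64 after dexamethasone and 11.48 to 11.58 after vehicle, mostly Erg and Kdr, at means of 10.16 and 10.13. Erg differed by -0.060 and Kdr by 0.098, neither called. Platelet genes, which matter because platelets hold thrombospondin-1, had 3 of 8 tested and 0 called in limma (0 at an unadjusted p below 0.05). Gp6 was listed at 0 in all libraries. The platelet sum was 8.31 to 8.38 after dexamethasone and 8.34 to 8.42 after vehicle. It was mostly Itga2b, at a mean of 8.25, against 3.31 for Gp1ba, the next highest. Of the skeletal muscle and wounded keratinocyte lists, with 7 and 13 genes tested, 0 were called in limma; at an unadjusted p below 0.05 these were 0 in the first, and 0 higher and 3 lower in the second. Without both libraries high in Krt16, 2 wounded keratinocyte genes were called lower, and with quantile normalization 1 was. Tie1 was not called without dexamethasone replicate 2 or vehicle replicate 1 or 2, Lyz2 was not without vehicle replicate 4, and 1 keratocyte marker in place of 2 was lower without replicate 2 or 4 of either group. The count of lower macrophage markers was 3 without vehicle replicate 3 and 2 without both libraries high in Krt16 or with library weights. The count of lower endothelial markers was 2 on leaving out dexamethasone replicate 1, 2 or 3, or one of vehicle replicates 1 and 4. The part of cell composition in the 4 called differences was not tested.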

How the data were processed

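Total RNA of whole mouse corneas was sequenced as paired 75 bp reads in 8 libraries, 4 dexamethasone and 4 vehicle. The submitters' processing notes list mm9 and the tools Bowtie2, HTSeq and DESeq2; their versions, the annotation, the strand setting and the kind of log transformation were not stated. The authors deposited normalized log2 values (24918 rows, 5078 listed at 0 throughout). The median within-group SD was 0.021 among the 812 rows at a mean of 2 to 3 and 0.059 among the 1688 at 7 to 8, the pattern of shrunken values. Since no strand setting is stated, reads of a gene and of an overlapping or antisense neighbour may be mixed.

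Rows with a mean of at least 3 (14715) were fitted with limma 3.58.1 in R 4.3.3 on group, with a variance trend, two-sided, with Benjamini-Hochberg adjustment over all of them. The fit was tested on simulated data. Exact permutation tests and tables used SciPy 1.17.1, pandas 2.3.3 and NumPy 2.4.6 under Python 3.11.15. Positions and exon lengths were read from the GENCODE vM1 annotation of NCBIM37 (mm9); promoters come from RefSeq on GRCm38.p6, with no coordinates converted. Planned protein motifs were not analysed here, and 1 marker gene is not reported here.

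Members and lists were chosen with earlier results of these data known. Named genes are the 10 members, up to 4 called genes of each list by adjusted p (or 2 by level where none was called), Fkbp5, Tsc22d3, Per1, Krt16 and Krt6a; others are marked. Alternatives were a replicate block, other filters, a pseudocount of 8, quantile normalization, median centring, no trend, robust moderation, library weights and leaving out libraries.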

Additional observations from a re-analysis of the deposited data

Results flagged for a closer look

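Tnc in dexamethasone replicate 3 lay apart from the other 3 dexamethasone libraries: its log2 value of 9.31 was separated from the next by 0.881 of the group's range, above Dixon's 95% critical value for 4 libraries. It was the only such case among 20 sets, the 10 genes in each of the 2 groups, and chance gives about 1 in 20. The log2 difference of Tnc was -0.016 with all libraries and 0.037 without this one, and it was called in neither fit.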

How the results depend on the processing

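Spp1 kept its call and direction under all 18 alternatives, from 0.42 to 0.56, and Tnc, Thbs1, Thbs2, Sparc, Acta2 and Tagln were called in none. The log2 differences of Tagln, Acta2, Tnc and Sparc, all near 0, changed sign in 4, 3, 2 and 2 of the 18. With quantile normalization the calls of Fn1 (0.11) and Postn (0.21) were lost, with robust moderation that of Postn (0.23), and without both libraries high in Krt16 those of Thbs4 (0.13) and Postn (0.18). On leaving out 1 library at a time, Fn1 ranged from 0.13 to 0.18 (called in 6 of 8 fits), Thbs4 from 0.13 to 0.18 (6 of 8) and Postn from 0.19 to 0.28 (2 of 8). Rows called lower then ranged from 493 to 829, against 888 with all libraries, and rows called higher from 918 to 1302, against 1330. The causes of these losses were not tested. Fits that left out libraries also had fewer of them, while those with quantile normalization and robust moderation used all 8.

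Same-numbered libraries did not deviate together (correlations of -0.31, 0.19, -0.14 and 0.14 over tested rows), and 0 of 4 dexamethasone libraries correlated best with its own number. With a replicate block 1053 rows were called higher and 622 lower; Thbs4 was no longer called (0.16, adjusted p = 0.0560, limma), and the calls of Spp1, Fn1 and Postn were kept. Of the related matrix genes 3 then rose and 1 fell, against 5 and 3 without the block, and 1 contractile gene and 1 keratocyte marker fell, against 2 each. Quantile normalization and median centring align the libraries by design, so the median of all tested rows stayed near its value of -0.0029 (-0.0046 and -0.00078). With quantile normalization Fn1 moved from 0.15 to 0.11, Thbs2 from -0.045 to -0.088 and Sparc from 0.023 to -0.039. Each of these moves exceeded the gene's SE with the deposited values (0.037, 0.031 and 0.038), while the other members moved by less than theirs. Read totals are unknown, so what depth limits for these genes cannot be given.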
